A study of Mus musculus with 28 samples.

Results

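Mitochondrial ribosomal protein genes encode the proteins of the large (Mrpl) and small (Mrps) subunits of the ribosome inside mitochondria. The members were the gene rows whose symbol was Mrpl or Mrps followed by a number and at most 1 letter, with at least 10 counts in 1 or more tumors. There were 78 such genes, 49 Mrpl and 29 Mrps, of 55341 gene rows, and all 78 were among the 18521 genes tested. The count minimum was the only measured value the choice used, and it removed no gene. The member with the lowest peak, Mrpl55, reached 693 counts in its highest tumor, followed by Mrpl44 with 772, and no row that matched the name lay below the minimum. Rows named as pseudogenes (Mrpl23-ps1, Mrpl48-ps and 3 Mrps36 copies) did not match the name. Mrpl48-ps held 100.3 to 297.6 counts against at least 423.4 for Mrpl48, so reads could be shared between this pair and Mrpl48 values are uncertain.

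RNA was sequenced from 28 whole subcutaneous AB1-HA tumors, a transplanted murine mesothelioma cell line grown in BALB/c.AusBP mice (young adult females), taken on day 7 after the start of treatment. The control group received PBS (n = 4). Single treatments were immune checkpoint blockade (ICB, n = 5), which was 100 µg of anti-CTLA-4 with 100 µg of anti-PD-L1, the latter repeated on 2 further occasions, 5-FU at 75 mg/kg (n = 5) and cisplatin at 6 mg/kg (n = 4), and the combinations were 5-FU+ICB (n = 5) and cisplatin+ICB (n = 5). 5-FU was given into the tail vein and every other agent into the peritoneum. All groups shared the tumor line, the strain and the site, so the results describe 1 line. Each tumor is labelled as a separate sample, and nothing in the labels ties tumors of equal number together. The study asked how chemotherapy combined with ICB changes gene expression in the tumor.

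Mitochondrial ribosomes translate the small set of proteins encoded by mitochondrial DNA, all of them parts of the oxidative phosphorylation complexes. Their ribosomal RNAs come from mitochondrial DNA, but every one of their proteins is encoded in the nucleus, made in the cytosol and imported. Some of these proteins have relatives in bacterial ribosomes, here called universal, and others occur only in mitochondria. The genes are expressed in nearly all cells and are commonly high in growing cells.

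Total counts per tumor ran from 23541733 to 33950805, at which 3 counts correspond to 0.0884 to 0.127 CPM (counts scaled to a common library size), so all 78 members stood far above the level where counting error dominates (lowest count of a member in a tumor, 246). CPM values are scaled by TMM throughout, and a gene was called a differentially expressed gene (DEG) at an adjusted p under 0.05 with a log2 fold change beyond 0.5. Of 6 tested mesothelial markers, Msln (median 142 CPM) and Pdpn (101 CPM) were present, whereas Wt1, Krt8, Krt19 and Calb2 had medians between 0.236 and 1.05 CPM. Wt1 and Calb2 did not exceed 2.78 CPM in any tumor, and Krt8 and Krt19 reached 33.4 and 48.9 CPM in their highest. In whole tumors, fewer cells of a type and less RNA per cell cannot be told apart.

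One library stood apart and bears on every result here. In cisplatin+ICB replicate 1 the 78 members summed to 9548 CPM, against 2043 to 2346 CPM in the other 4 tumors of that group and 1985 to 5518 CPM in the tumors of the other groups. It was the highest of 28 tumors for 72 of the 78 members. Relative to the mean of the other 4 cisplatin+ICB tumors, members ranged from 0.54-fold (Mrps2, the lowest of all 28 tumors) to 12.7-fold (Mrpl53), and Mrpl12 was at 11.1-fold. Cytosolic ribosomal protein genes took 15.6% of its counts against 4.01 to 4.78% in the rest of its group, and genes of mitochondrial DNA took 1.03% against 3.23 to 3.99%. Relative to the average over all tumors, the shortest quartile of transcripts was shifted by 1.05 and the longest quartile by -1.35 (median log2 deviation), compared with -0.20 to -0.08 and 0.01 to 0.13 in its group. Results are therefore given for all 28 tumors, the planned analysis, and for the 27 tumors without this library, a choice made after seeing the data. With it, the median standard error of a member's log2 fold change for ICB against PBS was 0.32, and without it 0.17.

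Members were highest in PBS tumors. Their mean log2 CPM was 5.54 ± 0.34 (SD, n = 4) in PBS, 5.22 ± 0.36 (n = 4) in cisplatin, 4.90 ± 0.21 (n = 5) in 5-FU+ICB, 4.88 ± 0.11 (n = 5) in 5-FU, 4.81 ± 0.10 (n = 5) in ICB and 5.10 ± 0.86 (n = 5) in cisplatin+ICB, the last becoming 4.72 ± 0.09 (n = 4) without replicate 1. Among the 4 PBS tumors the means were 5.62, 5.98, 5.28 and 5.26, so PBS replicate 2 was the highest and PBS replicates 3 and 4 lay close together. The tumors with the highest members outside the divergent library showed a length profile in the same direction as that library. PBS replicate 2 was shifted by 0.56 in the shortest and -0.69 in the longest quartile of transcripts, with 9.51% of counts on cytosolic ribosomal protein genes and 1.53% on genes of mitochondrial DNA, PBS replicate 1 by 0.29 and -0.40 and cisplatin replicate 4 by 0.37 and -0.45. In PBS replicates 3 and 4 the shifts were 0.10 and 0.17, and 0.15 and 0.05. The part of this in the comparisons with PBS was not tested. Every ICB and 5-FU tumor was below every PBS tumor on this mean, whereas cisplatin replicates 2 and 4, at 5.44 and 5.56, lay within the PBS range. Over the 27 tumors, the PBS group mean was the highest of the 6 groups for 76 members and cisplatin came second for 74. The lowest group was cisplatin+ICB for 52 members, ICB for 14, 5-FU+ICB for 7 and 5-FU for 5. These 4 groups had overlapping ranges of the mean.

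**Figure D1:**
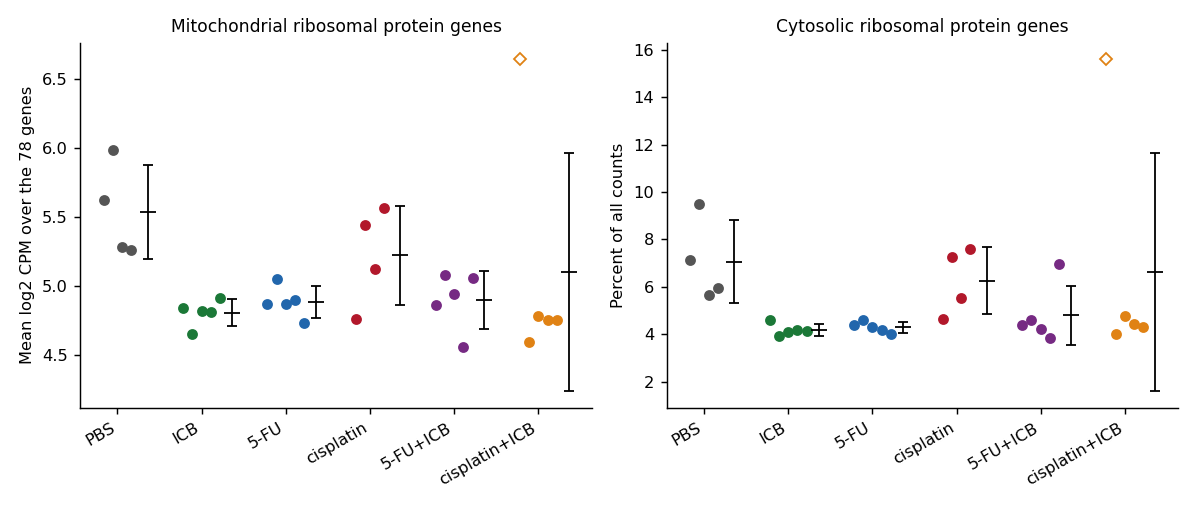
Each point is 1 tumor, in 6 treatment groups, with the group mean and SD as bars. The first panel plots the mean log2 CPM of the 78 mitochondrial ribosomal protein genes and the second the percent of counts in cytosolic ribosomal protein genes. The open diamond is cisplatin+ICB replicate 1, at 6.64 and 15.6%, above all other tumors in both panels.

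Many mitochondrial ribosomal protein genes were lower with ICB than with PBS. With all 28 tumors 31 of 78 members were DEGs, all of them lower, where 28% of all 18521 genes were called and 12.5% were called lower. Without the divergent library 67 were lower and none higher, against 40.6% of all genes called and 21.2% called lower. All 78 log2 fold changes were negative in both analyses, with a median of -0.75 over 28 tumors, beside -0.06 for all genes tested. For 67 members no ICB tumor reached the lowest PBS tumor, a pattern that 21% of all genes showed. Leaving out PBS replicate 2, the tumor with the highest members, from all 28 gave 8 DEGs, where 17.3% of all genes were called, and leaving it out together with the divergent library gave 56, where 32.9% were called.

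The member that fell most was Mrpl53, a protein found only in mitochondrial ribosomes. Its level in the PBS tumors was 43.7, 87.0, 25.7 and 27.5 CPM, and in the ICB tumors 19.3, 12.6, 14.4, 17.6 and 15.7 CPM. PBS replicate 2 was far above the other 3 PBS tumors, and no ICB tumor reached the PBS range. Its log2 fold change was -1.53 (SE 0.58, adjusted p = 0.0499) over 28 tumors and -1.53 (SE 0.28, adjusted p = 0.000299) over 27. Mrpl22, a protein at the wall of the exit tunnel through which new chains leave the ribosome, measured 41.5, 63.3, 32.9 and 29.5 CPM in PBS and 18.4, 14.6, 15.3, 19.3 and 17.1 CPM with ICB. Its groups were likewise separate, and the log2 fold change was -1.30 (SE 0.42, adjusted p = 0.0244). Mrps6, a protein of the small subunit platform, fell from 41.7 to 93.5 CPM in PBS to 14.7 to 34.9 CPM, a log2 fold change of -1.24 (SE 0.47, adjusted p = 0.0468). Mrpl23, which lies at the exit of the same tunnel, fell by 1.07 on the log2 scale (SE 0.37, adjusted p = 0.0353), and Mrps22, a mitochondria-specific small subunit protein, by 1.04 (SE 0.33, adjusted p = 0.0212). Neither of these genes overlapped between the groups, Mrpl23 measuring at least 67.9 CPM in PBS and at most 46.2 CPM with ICB, and Mrps22 at least 26.5 and at most 18.7 CPM. Over 28 tumors the calls of Mrpl53, Mrps6 and Mrpl23 lay close to the threshold. They were kept in 4, 4 and 5 of 11 fits that left out tumors and in 3, 4 and 4 of 9 alternative settings, and without PBS replicate 2 Mrpl53 was at -1.02 and not called.

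Mrps15, a universal small subunit protein that binds ribosomal RNA, gave the lowest adjusted p of the members. Its 4 PBS tumors lay close together at 53.3, 49.4, 50.2 and 50.7 CPM, and the 5 ICB tumors were at 31.8, 26.4, 30.3, 33.2 and 34.1 CPM. PBS replicate 2, which was the highest PBS tumor for the members as a whole, was the lowest of the 4 for this gene. The log2 fold change was -0.71 (SE 0.15, adjusted p = 0.00293). At the other end, Mrps18c, 1 of 3 related Mrps18 genes, measured 17.6 to 26.1 CPM in PBS and 16.6 to 24.2 CPM with ICB. The ranges overlapped almost wholly, and the log2 fold change was -0.07 (SE 0.29, adjusted p = 0.861). Its sign turned positive under other scalings and filters, so no direction is given for it. Its relative Mrps18b was called at -0.60 (adjusted p = 0.0248), and Mrps18a, which sits in the large subunit in spite of its symbol, was at -0.56 (adjusted p = 0.0887) over 28 tumors and -0.57 (adjusted p = 0.00197) over 27.

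**Figure D2:**
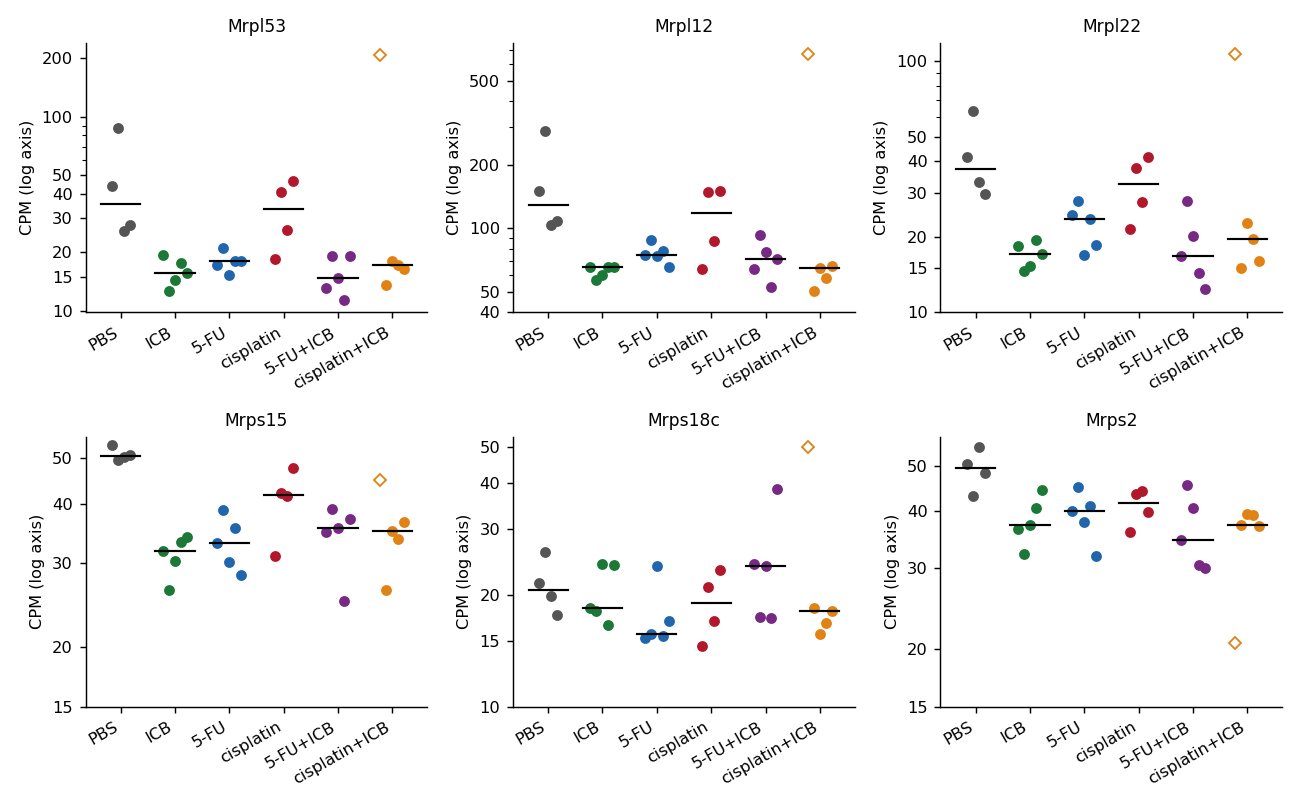
CPM on a log axis for 6 members (Mrpl53, Mrpl12, Mrpl22, Mrps15, Mrps18c and Mrps2) in each of the 28 tumors, with a bar at each group median. In Mrpl53, Mrpl12 and Mrpl22 cisplatin+ICB replicate 1 stands above all other tumors, in Mrps2 it is the lowest tumor at 20.6 CPM, and in Mrps15 the PBS tumors sit at 49.4 to 53.3 CPM.

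The members were next grouped by their place in the ribosome and as universal or mitochondria-specific. Mrps18b was listed as universal, whereas its relative Mrps18a and Mrpl55 were listed as mitochondria-specific. The group counts depend on such assignments, so no difference between universal and mitochondria-specific genes is given. For ICB against PBS over 28 tumors, where 12.5% of all genes were called lower, 8 of 29 universal large subunit genes were (median log2 fold change -0.79), 9 of 22 mitochondria-specific large subunit genes (-0.68), 9 of 17 universal small subunit genes (-0.73) and 5 of 9 mitochondria-specific small subunit genes (-0.83). Over 27 tumors, where 21.2% of all genes were lower, the counts were 26, 18, 15 and 8. No group held a member called higher. Mrps36, named as a ribosomal protein but known as a component of the 2-oxoglutarate dehydrogenase complex, was at -0.39 (adjusted p = 0.295) and not called in either analysis.

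Within the large subunit, Mrpl10 and Mrpl12 form the stalk that recruits translation factors, and Mrpl11 forms its base. Mrpl10 was called at -0.79 (SE 0.28, adjusted p = 0.0390), whereas Mrpl12 at -1.38 (SE 0.54, adjusted p = 0.0559) and Mrpl11 at -1.19 (SE 0.49, adjusted p = 0.0691) had larger differences and larger errors and were not. Both were called over 27 tumors, with adjusted p of 0.000264 and 0.000477. Mrpl12 measured 150.8, 289.6, 104.2 and 108.2 CPM in the PBS tumors and 57.1 to 65.7 CPM in the ICB tumors, without overlap. Mrpl45, which helps to hold the ribosome at the inner membrane, was called at -0.56 (adjusted p = 0.0359). Mrpl3, a core protein near the peptidyl transferase centre, was at -0.89 (adjusted p = 0.0625) and Mrpl58, a peptidyl-tRNA hydrolase that rescues stalled ribosomes, at -1.01 (adjusted p = 0.0617). These too passed only without the divergent library. Mrpl44, which resembles an RNase III enzyme, was at -0.29 and was called in neither analysis (adjusted p = 0.387 and 0.105). Mrps30, a large subunit protein in spite of its symbol, was called at -0.89 (adjusted p = 0.0312). The calls of Mrpl10 and Mrpl45 over 28 tumors were each kept in 3 of 9 alternative settings.

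In the small subunit, Mrps12, part of the decoding centre, was called at -0.71 (SE 0.20, adjusted p = 0.0135), with 23.3 to 29.97 CPM in PBS against 15.4 to 17.5 CPM with ICB. Mrps5, a protein near the mRNA entry, was called at -0.60 (SE 0.14, adjusted p = 0.00542), and its PBS tumors at 38.4 to 48.2 CPM were all above its ICB tumors at 24.8 to 30.7 CPM. Mrps7, which binds ribosomal RNA in the head of the subunit, was called at -0.96 (adjusted p = 0.0346), a call kept in 4 of 9 alternative settings. Mrps16 at -0.73 (adjusted p = 0.139) and Mrps2 at -0.37 (adjusted p = 0.0941) were not called over 28 tumors. Over 27 tumors Mrps16 was called (adjusted p = 0.00545), while Mrps2 reached an adjusted p of 0.0197 but stayed within the fold limit.

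5-FU gave nearly the same median difference from PBS as ICB, with few calls until the divergent library was left out. Over 28 tumors 2 members were DEGs, both lower, where 4.45% of all genes were called and 1.61% were called lower. Over 27 tumors 67 were lower and none higher, against 25.4% of all genes called and 14.3% lower, and 32 were left when PBS replicate 2 was dropped as well, where 11.3% of all genes were called. The median log2 fold change was -0.67 over 28 tumors, beside -0.01 for all genes, and 62 members did not overlap between the groups where 17.3% of all genes were separate and lower. The 2 called genes were Mrps15, at 33.1, 38.8, 30.2, 35.6 and 28.3 CPM in the 5-FU tumors (log2 fold change -0.62, SE 0.15, adjusted p = 0.0277), and Mrpl39. Mrpl39, a large subunit protein that resembles threonyl-tRNA synthetase, measured 38.2, 40.9, 36.7 and 37.2 CPM in PBS and 26.0, 30.7, 26.5, 25.6 and 24.1 CPM with 5-FU. No tumor of either gene crossed between groups, and the log2 fold change of Mrpl39 was -0.53 (SE 0.13, adjusted p = 0.0246). Its size was close to the fold limit, and the call was kept in 1 of 8 alternative settings and 4 of 11 fits that left out tumors, against 6 and 5 for Mrps15. Mrpl45 was next at -0.65 (adjusted p = 0.0553).

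Cisplatin alone gave 0 member DEGs in the edgeR test with and without the divergent library, and 0% of all genes were called. At an unadjusted p under 0.05 there were 2 members over 28 tumors, where 1.6% of all genes passed, and 21 over 27, where 3.44% passed, and DESeq2 over 28 tumors also called 0 members. All 78 log2 fold changes were negative, with a median of -0.32 beside -0.01 for all genes, and -0.15 without PBS replicate 2. In 5 members the cisplatin tumors all lay below the PBS tumors, a pattern that 1.85% of all genes showed. These were Mrpl39, Mrpl52, Mrps15, Mrps18b and Mrps5. Mrpl39 measured 25.0, 33.0, 29.6 and 32.9 CPM with cisplatin, a log2 fold change of -0.35 (SE 0.13, adjusted p = 1.0), and Mrps15 measured 31.1, 42.1, 41.6 and 47.7 CPM (-0.33, SE 0.16, adjusted p = 1.0). Cisplatin replicate 1 was the lowest of its group in both genes, at 2304 summed member CPM against 2976 to 4034 CPM in the other 3 tumors.

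With 5-FU+ICB, 23 members were lower than in PBS over 28 tumors and none was higher, where 31.4% of all genes were called and 12.5% were lower. Over 27 tumors 58 were lower, against 42.6% of all genes called and 20.4% lower, and 37 without PBS replicate 2 as well, where 35.2% of all genes were called. Leaving only 5-FU+ICB replicate 4, the tumor of its group with the lowest members, out of the 28 gave 4, where 25.1% of all genes were called. The median log2 fold change was -0.65, beside -0.05 for all genes. For 43 members the groups did not overlap, as for 14.3% of all genes. Mrpl53 was again the member that fell most, at 13.1, 19.2, 14.8, 11.4 and 19.2 CPM (log2 fold change -1.57, SE 0.58, adjusted p = 0.0421), and all of these tumors were below the lowest PBS tumor. Mrpl22 fell by 1.19 (adjusted p = 0.0325), Mrps35, a mitochondria-specific small subunit protein, by 1.12 (adjusted p = 0.0373), Mrpl23 by 1.08 (adjusted p = 0.0304) and Mrpl21, a universal large subunit protein, by 1.01 (adjusted p = 0.0249). The calls of Mrpl53 and Mrps35 were each kept in 4 of 8 alternative settings and 5 of 11 fits that left out tumors. Mrps18c and Mrpl36, a small universal protein of the large subunit, were the 2 members with a positive value, and neither was called. Mrps18c measured 24.2, 17.4, 23.96, 17.3 and 38.6 CPM (log2 fold change 0.19, SE 0.29, adjusted p = 0.625). Mrpl36 measured 28.2, 15.8, 25.3, 22.5 and 42.8 CPM (0.03, SE 0.29, adjusted p = 0.939), and both ranges included the whole PBS range. The highest tumor in both genes was 5-FU+ICB replicate 5, which had 16.1% of its counts on genes of mitochondrial DNA against 2.33 to 4.94% in the rest of its group. Without this tumor both values turned negative, to -0.03 for Mrps18c and -0.19 for Mrpl36, and no member was positive, so no direction is given for either gene.

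**Figure D3:**
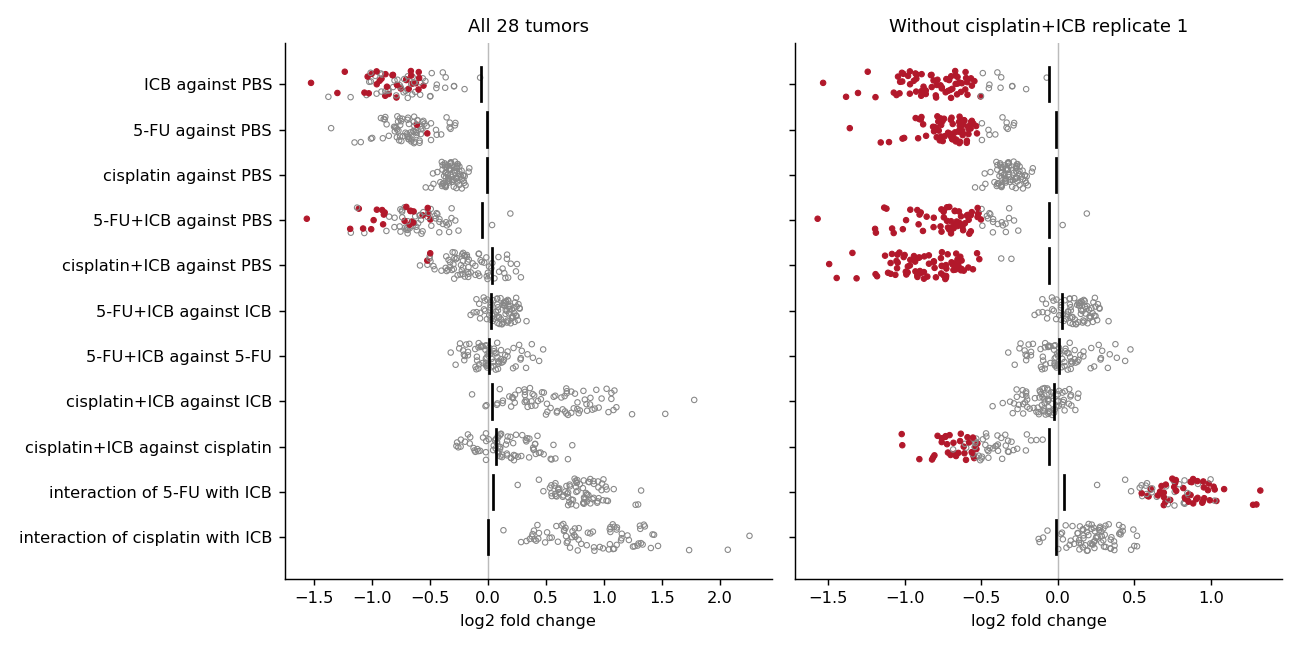
Log2 fold changes of the 78 members in 11 comparisons, over 28 tumors and over the 27 tumors without cisplatin+ICB replicate 1. Each point is 1 gene, filled red points are DEGs and the black bar is the median of all genes tested. The members sit below 0 for ICB, 5-FU and cisplatin against PBS in both panels, and the cisplatin+ICB comparisons move between panels, from a median of -0.18 to -0.85 against PBS.

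Cisplatin+ICB against PBS depended on the divergent library more than any other comparison with PBS. With it, 2 members were DEGs, both lower, where 4.36% of all genes were called and 0.939% were lower, and the median was -0.18 beside 0.03 for all genes. Without it, 76 were lower and none higher, against 32.1% of all genes called and 18.5% lower, and the median was -0.85 beside -0.06. The 2 members called with the library were Mrps15 and Mrps5, in which the library ranked 6 and 12 among the 28 tumors from the highest. Mrps15 measured 44.9, 26.4, 35.1, 33.7 and 36.6 CPM (log2 fold change -0.53, SE 0.15, adjusted p = 0.0473) and Mrps5 32.4, 27.3, 33.7, 29.5 and 28.5 CPM (-0.50, SE 0.14, adjusted p = 0.0454). All 5 tumors were below the PBS tumors in both genes. Neither call was kept under any of 8 alternative settings, and on leaving out tumors that of Mrps15 was kept in 2 of 10 fits and that of Mrps5 in 3, all but 1 of them without the divergent library. Mrpl39, at 34.5, 23.5, 25.5, 28.9 and 26.5 CPM, was also below PBS throughout, with an adjusted p of 0.0351 but a log2 fold change of -0.46 that fell short of the limit. Over the 27 tumors the uncalled members were Mrps18c and Mrps2. With the library 4 members did not overlap with PBS, where 4.54% of all genes were separate and lower, and without it 77 did not, where 24.3% were.

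The comparisons with PBS share the same 4 PBS tumors, so their values are set side by side only as descriptions. Over 28 tumors Mrps15 was called lower in all 4 comparisons with calls (ICB, 5-FU, 5-FU+ICB and cisplatin+ICB), with log2 fold changes of -0.71, -0.62, -0.57 and -0.53, the last of which passed the threshold narrowly and lost its call under all 8 alternatives. Mrps5 was called in 3, 20 members in 2, 11 in 1 and 45 in none. Of all genes tested, 0.124% were called lower in all 4, 0.831% in 3, 7.72% in 2, 9.09% in 1 and 82.2% in none. Over 27 tumors 55 members were called in all 4, 8 in 3, 11 in 2, Mrpl36 and Mrpl48 in 1, and Mrps18c and Mrps2 in none, beside 8.66%, 5.88%, 7.1%, 7.85% and 70.5% of all genes.

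Adding ICB to 5-FU, or 5-FU to ICB, gave 0 member DEGs in edgeR with or without the divergent library. For 5-FU+ICB against ICB 0.27% of all genes were called over 28 tumors and 0.98% over 27, and 0 members passed an unadjusted p of 0.05 over 28 tumors, as 9.12% of all genes did. The member median was 0.12, and Mrpl35 and Mrps12, both at 0.25, were among those nearest to the threshold (adjusted p = 0.752 and 0.822). Mrpl35 is a mitochondrial relative of a bacterial large subunit protein and measured 20.0, 17.8, 22.1, 24.3 and 24.9 CPM with ICB and 23.5, 31.2, 24.4, 20.4 and 29.95 CPM with 5-FU+ICB, ranges that overlapped. For 5-FU+ICB against 5-FU 0% of all genes were called over 28 tumors and 0.0108% over 27, no member passed an unadjusted p of 0.05 where 14% of all genes did, and 4 passed over 27 where 19.6% of all genes did. The median was 0.00. Mrpl44, at 11.97, 13.5, 11.0, 11.9 and 10.7 CPM with 5-FU and 14.2, 14.7, 13.8, 14.0 and 20.5 CPM with the combination, and Mrps36 were the 2 members whose groups did not overlap, a pattern 0.896% of all genes showed in the higher direction. Mrpl44 gave a log2 fold change of 0.39 (SE 0.25, adjusted p = 0.503). DESeq2 called 0 members in both comparisons. For 5-FU+ICB against 5-FU, dropping 1 further tumor besides the divergent library left 0 members in 26 of 27 fits and gave 2 in the remaining fit. Over these fits 0 to 17.1% of all genes were called.

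The interaction asks whether the combination differs from the sum of both single differences on the log2 scale. For 5-FU with ICB all 78 members had a positive value, with a median of 0.78 beside 0.04 for all genes, which is to say that the combination lay above that sum. Over 28 tumors edgeR called 0 members and 0% of all genes, with 17 members at an unadjusted p under 0.05, as were 11.1% of all genes. Over 27 tumors 49 members were called, all higher, where 5.76% of all genes were called and 4.02% were higher. Mrps15 had an interaction of 0.76 (SE 0.19, adjusted p = 0.0418), Mrpl39 of 0.59 (SE 0.14, adjusted p = 0.0418) and Mrpl35 of 0.69 (SE 0.18, adjusted p = 0.0433). These calls did not hold up, while the member median stayed between 0.62 and 0.88 on dropping 1 further tumor. Dropping 1 further tumor as well left 0 members for 17 of the 27 tumors, including tumors of groups outside this interaction, and gave up to 64 for the others, and the 5-FU matrix alone, which does not hold the divergent library, also gave 0. In the levels, Mrps15 was at 50.9 ± 1.67 CPM (SD, n = 4) in PBS, 31.2 ± 3.02 (n = 5) with ICB, 33.2 ± 4.19 (n = 5) with 5-FU and 34.4 ± 5.47 (n = 5) with the combination, so the 3 treated groups overlapped.

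Cisplatin+ICB against ICB gave 0 member DEGs and 0% of all genes called in both analyses. Over 28 tumors 31 members passed an unadjusted p of 0.05, where 17.3% of all genes did, and the member median was 0.59. Over 27 tumors 1 passed, where 7% of all genes did, and the median was -0.09. Mrpl53 moved from 1.78 (adjusted p = 0.247) to 0.04 (adjusted p = 0.976) and Mrpl12 from 1.53 (adjusted p = 0.247) to -0.06 (adjusted p = 0.955) on leaving out the library. The Mrpl53 values of the 5 cisplatin+ICB tumors were 208.0, 13.7, 18.0, 17.2 and 16.5 CPM, so the difference lay in 1 tumor. Without it, 4 members were separate and lower, namely Mrpl27, Mrpl44, Mrps11 and Mrps14, where 3.19% of all genes were.

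For cisplatin+ICB against cisplatin, 0 members were called over 28 tumors by edgeR, none passed an unadjusted p of 0.05 where 12.3% of all genes did, and 0.146% of all genes were called. Over 27 tumors 35 were lower and none higher, against 12.4% of all genes called and 6.9% lower, and the median went from 0.12 to -0.54. The largest difference over 27 tumors was in Mrps6, at 28.1, 56.7, 46.4 and 59.5 CPM with cisplatin and 20.3, 29.9, 21.8 and 22.2 CPM in the 4 remaining cisplatin+ICB tumors, with a log2 fold change of -1.02 (SE 0.28, adjusted p = 0.0254). Cisplatin replicate 1, at 28.1 CPM, lay below the highest of these tumors, and over all members 19 did not overlap between these groups, where 11.9% of all genes were separate and lower. Dropping cisplatin replicate 2, cisplatin replicate 4, cisplatin+ICB replicate 2 or cisplatin+ICB replicate 4 as well left 0 member calls, and dropping cisplatin+ICB replicate 5 left 1. Mrpl51 (-0.27 over 28 tumors, adjusted p = 0.537) and Mrps2 (-0.24, adjusted p = 0.610) were the members with the lowest adjusted p in the planned analysis. For the interaction of cisplatin with ICB, 0 members and 0% of all genes were called in both analyses, and the member median moved from 0.89 to 0.23. At an unadjusted p under 0.05 the members numbered 33 over 28 tumors, where 9.16% of all genes passed, and 2 over 27, where 2.78% did.

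Genes that work with mitochondrial ribosomes were counted in the same way for ICB against PBS, where 12.5% of all genes were lower over 28 tumors and 21.2% over 27. Of 5 mitochondrial ribosomal proteins with other symbols 3 were lower over 28 tumors and all 5 over 27. Mitochondrial translation factors gave 7 of 14 lower (10 over 27 tumors), mitochondrial aminoacyl-tRNA synthetases 5 of 20 (11) and genes of mitochondrial DNA transcription and RNA stability 4 of 12 (8). Of 23 assembly factors 4 were lower (16) and Rbfa, a factor that binds the maturing small subunit, was higher at 0.85 (SE 0.28, adjusted p = 0.0279). Tfam, which packages and transcribes mitochondrial DNA, was at -0.74 (adjusted p = 0.0917) over 28 tumors and -0.75 (adjusted p = 0.00215) over 27. Of 9 regulators of these genes, Myc was lower at -0.83 (SE 0.29, adjusted p = 0.0373), with 46.8 to 95.5 CPM in ICB tumors and 90.2 to 165 CPM in PBS tumors, which overlapped. Over 27 tumors Myc was again the 1 regulator called lower, and Ppargc1b, a coactivator of mitochondrial genes, was called higher at 1.10 (SE 0.28, adjusted p = 0.00341), after 1.10 (adjusted p = 0.0831) over 28. Myc was not called with 5-FU (-0.19, adjusted p = 0.676), 5-FU+ICB (-0.34, adjusted p = 0.38) or cisplatin+ICB (-0.52, adjusted p = 0.307). Without the divergent library the value for cisplatin+ICB was -0.32 (adjusted p = 0.344). With 5-FU+ICB the 1 regulator called over 28 tumors was Ppargc1a, a coactivator related to Ppargc1b, lower at -1.33 (SE 0.50, adjusted p = 0.0417). Over 27 tumors Ppargc1a was again called, at -1.33 (adjusted p = 0.0313). Esrra, a nuclear receptor that acts with these coactivators, was called lower over 27 tumors with 5-FU (-0.74, adjusted p = 0.00121) and 5-FU+ICB (-0.53, adjusted p = 0.00328), and over 28 it was not (adjusted p = 0.126 and 0.174). Nrf1, a transcription factor of many mitochondrial genes, was at -0.39 with ICB (adjusted p = 0.0239), within the fold limit, and Gabpa, an ETS factor of such genes, was at 0.03 (adjusted p = 0.928).

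Counts on cytosolic ribosomal protein genes also differed between the groups. These genes took 5.64 to 9.51% of counts in PBS tumors, 3.93 to 4.61% with ICB, 3.99 to 4.61% with 5-FU, 4.65 to 7.59% with cisplatin and 3.84 to 6.97% with 5-FU+ICB. For ICB against PBS 7 of 88 were called lower over 28 tumors, a smaller share than the 12.5% of all genes, and 74 over 27, where 21.2% of all genes were lower, with a median of -0.78. Genes of mitochondrial DNA took 1.53 to 2.37% in PBS, 2.69 to 4.82% with ICB and 2.72 to 6.8% with 5-FU, both above PBS throughout, whereas cisplatin at 1.72 to 2.76% and 5-FU+ICB at 2.33 to 16.1% overlapped with PBS. With cisplatin+ICB the share was 3.23 to 3.99% outside the divergent library. Levels of marker genes of cell types differed as well. The 16 leukocyte markers summed to 1172 to 1420 CPM in PBS, 2712 to 6535 CPM with ICB, 1276 to 4545 CPM with 5-FU, 1054 to 1690 CPM with cisplatin, 1238 to 6572 CPM with 5-FU+ICB and 1590 to 3670 CPM with cisplatin+ICB, and 12 of 16 were called higher with ICB. Of all genes, 28% were called with ICB over 28 tumors and 12.5% were called lower. Of 12 proliferation genes 9 were lower with ICB, with sums of 911.3 to 2331 CPM against 2647 to 3184 CPM in PBS. Skeletal muscle markers summed to 130.4 to 222.9 CPM in PBS and 2.498 to 4323 CPM with ICB, with 0 of 10 called. The other marker lists below had 0 genes called lower with ICB over 28 tumors, while 2 of 8 endothelial markers, 1 of 10 fibroblast markers and 1 of 6 mesothelial markers were called higher. These counts stand beside the same 28% of all genes called, of which the lower share was 12.5% of all genes. Sums in PBS and ICB were 5022 to 12270 and 5276 to 10660 CPM for 10 fibroblast markers, 112.8 to 166.6 and 168.2 to 335.4 CPM for 8 endothelial markers, 35.74 to 61.8 and 16.54 to 175.5 CPM for 6 adipocyte markers, and 36.22 to 99.36 and 32.53 to 225.4 CPM for 5 erythroid markers. The endothelial sums of all 5 ICB tumors lay above those of PBS. With 5-FU the fibroblast markers summed to 13510 to 21570 CPM, above PBS throughout, with 0 of 10 called over 28 tumors and 6 called higher over 27. Of all genes, 4.45% were called with 5-FU over 28 tumors and 25.4% over 27, where 14.3% were called lower. The sums with 5-FU were 163.9 to 376.8 CPM for endothelial, 11.86 to 1992 CPM for skeletal muscle, 25.34 to 282.1 CPM for adipocyte and 1.737 to 97.45 CPM for erythroid markers, and 1384 to 2699 CPM for the proliferation genes. The proliferation genes summed to 2079 to 2643 CPM with cisplatin and 1047 to 3048 CPM with 5-FU+ICB. With cisplatin+ICB they were at 2974 CPM in the divergent library and 1629 to 2199 CPM in the other tumors. Endothelial sums were 105.4 to 135.5 CPM with cisplatin, 199.3 to 817.6 CPM with 5-FU+ICB and 96.34 to 206.1 CPM with cisplatin+ICB. The 6 tested mesothelial markers, a sum made up mainly of Msln and Pdpn, came to 333.5 to 479.5 CPM in PBS, 147.2 to 299.7 CPM with ICB, 174 to 280.2 CPM with 5-FU, 279.9 to 382 CPM with cisplatin, 154.9 to 304.2 CPM with 5-FU+ICB and 232.7 to 326.3 CPM with cisplatin+ICB, where the divergent library was at 905 CPM. Their mean log2 CPM, in which all 6 weigh equally, did not follow this order, at 1.49 in PBS, 1.54 with ICB, 1.58 with 5-FU, 1.705 with cisplatin, 1.97 with 5-FU+ICB and 1.99 with cisplatin+ICB. The last was 1.80 without the divergent library, and the group SDs ran from 0.214 to 0.5, so no direction is given for the list. No marker on these lists was at 0 in every tumor. The part of these differences in the members' result was not tested.

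Transcript length also moved with the comparisons. The members' transcripts had a median length of 1224.5 bases against 2463.5 for the other tested genes. For ICB against PBS the median log2 fold change of the other genes went from -0.38 in the shortest quartile through -0.16 and 0.00 to 0.24 in the longest quartile. The members were at -0.74, -0.74, -0.82 and -0.75 in the same quartiles, which held 48, 14, 10 and 6 of them. In each quartile the members' median was below that of the other genes, and the part of transcript length in the members' result was not tested. For 5-FU the other genes went from -0.37 to 0.32 and the members were at -0.69, -0.63, -0.78 and -0.64.

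**Figure D4:**
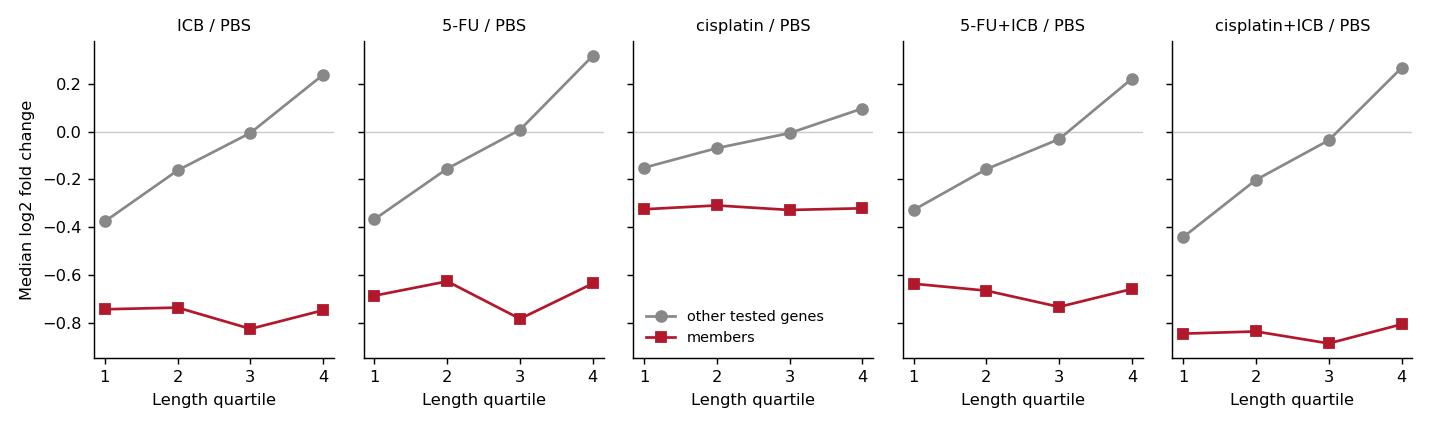
Median log2 fold change against PBS by quartile of transcript length for the 78 members and for the other tested genes, in the 27 tumors without cisplatin+ICB replicate 1, for 5 treatments. The other genes rise from the shortest to the longest quartile, for example from -0.38 to 0.24 with ICB, whereas the members stay between -0.74 and -0.83 with ICB.

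Members differed widely in level. Per kilobase of transcript, and averaged over the 28 tumors, the highest were Mrpl33 at 117 ± 92.8 CPM (SD), Mrpl20 at 113 ± 69.4 and Mrpl52 at 110 ± 32.0, and the lowest were Mrpl1 at 5.46 ± 2.80, Mrpl47 at 6.73 ± 1.94 and Mrpl19 at 6.89 ± 3.54. Without the divergent library the same 3 were highest in another order, Mrpl52 at 106 ± 23.1, Mrpl20 at 102 ± 34.4 and Mrpl33 at 101 ± 34.0, and the lowest were Mrpl1 at 5.00 ± 1.39, Mrpl19 at 6.29 ± 1.56 and Mrpl47 at 6.55 ± 1.73. Neighbours within each of these sets did not differ beyond their spread over tumors. Across the 27 tumors the coefficient of variation of the CPM ran from 14.9% in Mrps2 and 15.7% in Mrpl39 to 55.5% in Mrpl12 and 67.4% in Mrpl53. These values include the treatment differences.

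The 78 genes lie on 17 chromosomes (GRCm38, GENCODE M21). Mrpl53 is at chr6:83109040-83109939 on the plus strand, Mrpl22 at chr11:58171661-58179565, plus strand, Mrps15 at chr4:126046925-126055532, plus strand, Mrpl39 at chr16:84717576-84735742, minus strand, and Mrps18c at chr5:100798627-100804471, plus strand. Of the members, 33 (42.3%) had the start of a protein-coding gene on the other strand within 1000 bases of their own, against 2129 of 14897 other tested protein-coding genes (14.3%). Mrps11 and Mrpl46, from the small and the large subunit, are each other's neighbour in this sense, with 412 bases between their starts.

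RefSeq promoter windows (GRCm38.p6, 250 bases before to 50 bases after the start) matched 69 members in 75 windows. Letters of an NRF1 site, GCGCNTGCG on either strand, occurred in 24% of these windows and in 6.31% of all windows, and letters of an ETS site, CCGGAAG, in 34.7% and 8.86%. Against windows of tested genes only, the shares were 11.1% and 15%. YY1 letters, AAGATGGCG, occurred in 10.7% of member windows and 2.46% of those of tested genes. A CCAAT box (CCAAT) occurred in 40% and 37.4%, an SP1 box (GGGCGG) in 52% and 56.7%, the E-box CACGTG in 9.33% and 9.25%, and TATAAA in 6.67% and 8.55%. All motifs were searched on both strands, and the member windows had a median GC content of 58.7% against 52.7% in all windows. NRF1 or ETS letters were found for 37 members, both for 7 and neither for 32. For ICB against PBS the median log2 fold change was -0.71 in the 37 and -0.79 in the 32.

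The sequences before the RefSeq start of 5 members are shown in full up to the first base of an annotated exon, with NRF1 and ETS letters in capitals. Mrpl12, Mrpl22 and Mrps22 represent members with large differences between PBS and ICB and carry an NRF1 match, both matches and an ETS match, respectively. Mrps15 was called in all 4 comparisons and Mrps2 in none, and neither window holds such letters.
Mrpl12, chr11:120484387-120484612, plus strand: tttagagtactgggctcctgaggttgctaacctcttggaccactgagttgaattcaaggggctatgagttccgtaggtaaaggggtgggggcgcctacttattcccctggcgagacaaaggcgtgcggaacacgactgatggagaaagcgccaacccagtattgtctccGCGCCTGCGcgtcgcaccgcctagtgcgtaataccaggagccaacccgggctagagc
Mrpl22, chr11:58171414-58171660, plus strand: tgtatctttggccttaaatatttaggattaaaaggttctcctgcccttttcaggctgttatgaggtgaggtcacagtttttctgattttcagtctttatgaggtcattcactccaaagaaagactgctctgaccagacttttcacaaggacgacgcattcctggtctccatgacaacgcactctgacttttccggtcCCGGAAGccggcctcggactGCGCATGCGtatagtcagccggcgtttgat
Mrps22, chr9:98601680-98601929, minus strand: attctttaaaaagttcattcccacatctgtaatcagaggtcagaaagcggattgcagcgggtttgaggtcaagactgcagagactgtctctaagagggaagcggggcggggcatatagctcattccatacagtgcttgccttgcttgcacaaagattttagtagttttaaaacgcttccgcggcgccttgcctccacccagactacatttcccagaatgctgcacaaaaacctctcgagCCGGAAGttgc
Mrps15, chr4:126046678-126046924, plus strand: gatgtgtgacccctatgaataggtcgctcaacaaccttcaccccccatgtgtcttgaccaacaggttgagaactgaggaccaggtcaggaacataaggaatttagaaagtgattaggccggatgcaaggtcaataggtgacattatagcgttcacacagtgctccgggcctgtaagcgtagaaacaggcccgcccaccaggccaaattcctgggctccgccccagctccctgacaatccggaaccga
Mrps2, chr2:28467816-28468065, plus strand: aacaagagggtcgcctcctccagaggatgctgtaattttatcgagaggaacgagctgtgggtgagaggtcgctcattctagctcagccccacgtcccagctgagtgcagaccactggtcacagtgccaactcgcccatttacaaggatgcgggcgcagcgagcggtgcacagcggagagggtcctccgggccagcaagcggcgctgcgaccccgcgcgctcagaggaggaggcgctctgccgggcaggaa
The NRF1 letters begin 81 bases before the start in Mrpl12 and 33 bases before it in Mrpl22, where the ETS letters begin 53 bases before it. In Mrps22 the ETS letters begin 11 bases before the start. Such matches describe the letters only, and genes with and without them were among those called.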

How the data were processed

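Reads were 100-base single-end reads of whole-tumor RNA, and the authors demultiplexed them with bcl2fastq 2.20.0.422 and quantified transcripts with kallisto 0.46.0 on GRCm38 (mm10), per the labels' processing notes. The deposited values are estimated counts (expected counts) per gene, not normalized, in 2 matrices, 1 for each chemotherapy, with the 9 PBS and ICB tumors held in both at identical values, and 23.7% of the values are not whole. No other value columns were present.

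Here the estimated counts were rounded and all 28 tumors and 6 groups were fitted jointly with the quasi-likelihood test of edgeR 4.0.16 (R 4.3.3), after filterByExpr and TMM scaling, with Benjamini-Hochberg adjustment over all 18521 genes tested (18460 without cisplatin+ICB replicate 1). A DEG had an adjusted p under 0.05 and a log2 fold change beyond 0.5. Log2 CPM used a prior count of 2. The study used DESeq2, which is an alternative here (1.42.0). Group comparisons were each treatment against PBS, each combination against its single agents, and the interactions.

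Genes were named by rule: for each comparison at most 5 members called higher and 5 called lower, taken by size of change (with fewer than 3 DEGs, also the 3 members with the smallest p), members with a known place in the ribosome, the 3 Mrps18 genes and Mrps36, the 3 highest and 3 lowest per kilobase, those nearest to the count minimum, and Myc with at most 3 DEGs from each other list. Mrps6 against cisplatin, the members singled out because groups did or did not overlap, Mrps11 with Mrpl46, Tfam, Nrf1, Gabpa, Ppargc1a, Ppargc1b, Esrra and Mrpl36 against PBS were named after their values were seen. The members, gene lists and tests were chosen with earlier results of these data known. Alternatives were other scalings, filters, tools, matrices, a replicate block and leaving out tumors, and those without cisplatin+ICB replicate 1 were chosen after seeing the data. Nothing in the labels says that tumors were processed apart, and no batch is named. The edgeR step was tested on simulated data. The CPM floors cover counting error only, whereas the standard errors and p-values of edgeR include the estimated spread between tumors.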

Additional observations from a re-analysis of the deposited data

Results flagged for a closer look

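In 216 sets of values, each a measure in 1 group of 4 or 5 tumors, 41 had a highest or lowest tumor that stood far from the others by Dixon's criterion, and chance alone flags about 1 in 20 groups. Of these, 32 were in cisplatin+ICB replicate 1. Its mean log2 CPM of the members was 6.64 against 4.59 to 4.78 in the other 4 tumors, and the members took 0.653% of its counts against 0.223 to 0.268%. Cytosolic ribosomal protein genes took 15.6% and genes of mitochondrial DNA 1.03%, and Myc was at 35.2 CPM against 97.1 to 105 CPM. The named members that were far above the other 4 tumors of this group were, in CPM, Mrpl10 163, Mrpl11 231, Mrpl12 665, Mrpl13 281, Mrpl18 133, Mrpl21 115, Mrpl22 106, Mrpl23 226, Mrpl3 207, Mrpl35 38.6, Mrpl36 44.5, Mrpl44 39.5, Mrpl45 70.0, Mrpl53 208, Mrpl58 140, Mrps12 33.2, Mrps16 142, Mrps18a 72.0, Mrps18b 59.9, Mrps18c 50, Mrps22 65.5, Mrps30 98.3, Mrps35 163, Mrps36 52.4, Mrps6 163 and Mrps7 155. Mrps2 was far below them at 20.6 CPM against 37.0 to 39.4 CPM.

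The 9 other single-tumor values were spread over 4 groups. Their number is about what the chance rate given above would flag, so they are listed only as descriptions. In 5-FU+ICB replicate 5, genes of mitochondrial DNA took 16.1% of counts against 2.33 to 4.94% in the rest of its group, cytosolic ribosomal protein genes took 6.97% against 3.84 to 4.60%, and Mrpl44 was at 20.4 CPM against 13.8 to 14.7 CPM. In 5-FU+ICB replicate 4, Mrps15 was low at 25.0 CPM against 35.0 to 39.0 CPM. In 5-FU replicate 3, genes of mitochondrial DNA took 6.8% against 2.72 to 3.40% and Mrps18c was at 24 CPM against 15.3 to 17.0 CPM. In cisplatin replicate 1, genes of mitochondrial DNA took 2.76% against 1.72 to 1.79%. Mrpl13 was high in ICB replicate 5 at 74.8 CPM against 57.3 to 59.1 CPM, and Mrpl3 was low in ICB replicate 2 at 38.5 CPM against 45.4 to 47.6 CPM.

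The effect of ICB differed between tumors with and without 5-FU by the interaction test for 49 members once cisplatin+ICB replicate 1 was left out, all with the combination above the sum of the single differences, where 4.02% of all genes were called higher, and for 0 with all 28 tumors. Dropping 1 further tumor left 0 members for 17 of the 27 tumors.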

How the results depend on the processing

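The median log2 fold change of the members kept its sign against PBS under every alternative run, from -0.86 to -0.62 for ICB, -0.76 to -0.51 for 5-FU, -0.73 to -0.48 for 5-FU+ICB and -0.46 to -0.15 for cisplatin on leaving out 1 tumor of the 28, whereas for cisplatin+ICB it ran from -0.85 to -0.02. Counts of called members moved far more, and the cause was not tested. Leaving out 1 tumor, or cisplatin+ICB replicate 1 with PBS replicate 2, moved ICB against PBS from 8 to 67, 5-FU from 0 to 67, 5-FU+ICB from 4 to 58, cisplatin+ICB from 0 to 76, cisplatin+ICB against cisplatin from 0 to 42 and the interaction of 5-FU with ICB from 0 to 49. The highest counts came without cisplatin+ICB replicate 1 (for the 42, without PBS replicate 2 as well), the 8 for ICB came without PBS replicate 2, and the 4 for 5-FU+ICB without 5-FU+ICB replicate 4. With cisplatin+ICB replicate 1 and any 1 further tumor left out, the counts were 56 to 70 for ICB (31.5 to 43.3% of all genes called), 32 to 71 for 5-FU (11.3 to 29.3%), 37 to 64 for 5-FU+ICB (34.5 to 50.9%), 69 to 76 for cisplatin+ICB (20.9 to 34.8%, member median -0.95 to -0.67), 0 to 60 for cisplatin+ICB against cisplatin (0.937 to 20.6%) and 0 to 64 for the interaction of 5-FU with ICB (0 to 11.6%). On the former removals Mrps18c with ICB ran from -0.15 to 0.04, Mrpl12 for cisplatin+ICB against ICB from -0.06 to 1.77 and Mrpl13 for cisplatin+ICB against cisplatin from -0.37 to 0.82. For ICB, 5-FU, 5-FU+ICB and cisplatin+ICB against PBS, in that order, unadjusted p with the fold limit gave 55, 40, 35 and 6 members, and 30 for cisplatin+ICB against ICB, 16 for the interaction with 5-FU and 32 for that with cisplatin. In the same order RLE size factors gave 18, 1, 10 and 0, no filter 14, 0, 10 and 0, at least 10 counts in every tumor 15, 1, 9 and 0, and the replicate block 14, 0, 10 and 0. Upper-quartile scaling gave 1 for 5-FU and 0 for cisplatin+ICB, and DESeq2 gave 5, 14 and 0 for 5-FU, 5-FU+ICB and cisplatin+ICB. Fitting only the groups compared, which leaves out the divergent library except for cisplatin+ICB, gave 62 for ICB, 48 for 5-FU and 0 for cisplatin+ICB. The 5-FU matrix alone, without that library, gave 66, 66 and 55 for ICB, 5-FU and 5-FU+ICB, and the cisplatin matrix, which holds it, 13 for ICB and 0 for cisplatin+ICB. Mrps18c with ICB was at 0.01 with RLE factors, 0.05 without a filter, 0.04 with the strict filter and 0.01 in DESeq2. For cisplatin+ICB against PBS, RLE factors and upper-quartile scaling moved the median of all genes from 0.03 to 0.15 and 0.13, and the members' median to -0.07 and -0.08. Tumors of equal number did not deviate together (correlations of their deviations from the group means from -0.629 to 0.665), so the block has no known pairing behind it. The groups of 4 or 5 tumors limit precision, and every member had at least 246 counts in each tumor.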
